A study of Mus musculus with 4 samples.

Results

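The 8 genes described here encode transcription factors that pattern the developing tooth: the muscle segment homeobox genes Msx1 and Msx2, the paired box gene Pax9, the bicoid-type homeobox gene Pitx1, the Bar-type homeobox gene Barx1, and the LIM homeobox genes Lhx6, Lhx8 and Isl1. They were chosen by name, and every probe set whose platform annotation gives exactly 1 of these symbols was taken, which gave 15 of 34945 probe sets that name 1 gene, or 8 of 18193 genes. RNA came from molar teeth of 60 Swiss Webster pups, a wild-type outbred stock, with males and females and all ages from 1 to 10 days after birth in 1 pool. The teeth were pulled by hand and ground together, and the RNA was hybridised to 4 Affymetrix Mouse Genome 430 2.0 arrays, on which a probe set of short oligonucleotides reports a transcript. The arrays form 1 group of technical replicates, so every SD and p-value covers only the spread between arrays, and neither age, sex nor cell type can be told apart in it. Fewer cells of a type and less RNA per cell cannot be told apart either. The study's comparison with 16 tissues from a separate series was not analysed here.

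Homeodomain proteins bind DNA with a helical domain that reads short sites rich in A and T, while the paired domain is a separate DNA-binding fold. In the embryonic jaw, signals of the Bmp and Fgf families from the oral epithelium switch these genes on in defined stretches of epithelium or neural crest mesenchyme, and the mesenchymal factors then switch on signals of their own. In the mouse, Msx1 and Pax9 are needed for the tooth bud to reach the cap stage, Barx1 marks the molar field, Lhx6 and Lhx8 act together in molar mesenchyme, Pitx1 is expressed in oral epithelium and jaw mesenchyme, and Isl1 is known from the epithelium of the embryonic incisor. For the first molar, the days covered by the pool come after that patterning phase, when the crown mineralises.

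Values are MAS5 signal, a linear intensity that the authors scaled to a common level on each array. The background threshold of an array was the signal that 95% of 86 receptor probe sets stayed under, those that name olfactory, vomeronasal or taste receptor genes, and it stood at 996, 1097, 1295 and 1266 on arrays 1 to 4. A probe set was called above background where it exceeded the threshold of every array, and a gene where any of its probe sets did. By this rule 7 of the 8 genes were above background, and Isl1 was not, where 51.6% of all genes were called. The share called rises with the number of probe sets of a gene, from 35.2% of genes with 1 to 60.1% with 2 and 73.4% with 3. Among the 8 genes, 2 of 2 with 1 probe set, 4 of 5 with 2 and 1 of 1 with 3 were above background. Of the 15 probe sets, 10 were above background, where 42.5% of all probe sets that name 1 gene were. The log2 ratio of signal to threshold was also tested with limma, one-sided and adjusted by the Benjamini-Hochberg method over 45037 probe sets, and this called 10 of the 15 (background share 41.8% of probe sets that name 1 gene). Brightness depends on the probe, so signals of different genes or probe sets are not compared as amounts of mRNA.

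Msx2 acts in ameloblasts, dental mesenchyme and bone, and mice without it form defective enamel. Its probe set 1449559_at had signals of 18413, 20401, 19618 and 22244 on arrays 1 to 4. These lie between 15.2 and 18.6 times the threshold of the same array, and the fitted difference was 4.12 ± 0.11 on the log2 scale (SE, n = 4; one-sided limma adjusted p = 9.75e-15). The second Msx2 probe set, 1438351_at, had 799.9, 1734, 2129.96 and 1543, so it was under the threshold on array 1 and over it on the other arrays. It was not above background by the rule or by limma (0.34 ± 0.21 on the log2 scale, adjusted p = 0.168), and its SD of log2 signal, 0.61, was larger than that of 96.0% of the 1000 probe sets nearest to it in mean signal. The 2 probe sets of Msx2 thus gave different calls, and the call for the gene rests on the first.

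Msx1, which in dental mesenchyme relays Bmp signals and maintains Bmp4, was above background with both of its probe sets. The probe set 1448601_s_at had signals of 9461, 9800.4, 10862 and 8179.95, with array 3 highest and array 4 lowest. The fitted difference from the threshold was 3.04 ± 0.12 on the log2 scale (SE, n = 4; limma adjusted p = 9.42e-13). The probe set 1417127_at had 2077, 2653, 1981 and 2492, with array 2 highest and array 3 lowest, and a log2 difference of 0.98 ± 0.16 (adjusted p = 3.12e-05). Array 3 was thus the highest for one Msx1 probe set and the lowest for the other, so the ups and downs over the arrays were not shared by the gene's probe sets. The suffix of the first marks sequence that can be shared with other transcripts, and the second, which has no such suffix, gave the same call.

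For Msx1, Msx2 and Isl1 the 300 bases around the annotated start are shown, because Msx1 and Msx2 are close paralogs above background and Isl1 is the gene that was not. The sequences are RefSeq's on GRCm38.p6, from 250 bases before to 50 after the start, read 5′ to 3′ on the gene's strand, and capitals mark each TAAT or its reverse complement ATTA, the core of many homeodomain sites.
Msx2 (chr13:53472731-53473030, minus strand): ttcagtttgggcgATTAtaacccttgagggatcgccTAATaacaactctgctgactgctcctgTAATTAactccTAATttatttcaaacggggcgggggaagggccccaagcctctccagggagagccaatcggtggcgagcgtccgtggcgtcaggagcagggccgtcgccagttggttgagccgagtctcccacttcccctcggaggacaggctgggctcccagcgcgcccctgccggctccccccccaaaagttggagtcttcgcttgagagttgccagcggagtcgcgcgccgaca
Msx1 (chr5:37824536-37824835, minus strand): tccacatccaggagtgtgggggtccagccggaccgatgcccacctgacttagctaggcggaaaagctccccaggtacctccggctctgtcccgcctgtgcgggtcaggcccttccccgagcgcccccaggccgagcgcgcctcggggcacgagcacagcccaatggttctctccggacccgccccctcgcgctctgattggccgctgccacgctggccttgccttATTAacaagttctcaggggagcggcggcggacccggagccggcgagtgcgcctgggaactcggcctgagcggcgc
Isl1 (chr13:116309639-116309938, minus strand): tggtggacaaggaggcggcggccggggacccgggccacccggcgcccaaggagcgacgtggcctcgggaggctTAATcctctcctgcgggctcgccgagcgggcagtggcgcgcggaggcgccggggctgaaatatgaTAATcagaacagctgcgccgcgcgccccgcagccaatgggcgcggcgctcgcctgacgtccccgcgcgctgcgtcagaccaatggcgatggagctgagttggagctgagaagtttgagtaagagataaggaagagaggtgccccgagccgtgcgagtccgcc
The core occurred 5 times in the Msx2 window, counting an overlapping pair in TAATTA, 1 time in that of Msx1 and 2 times in that of Isl1. Of 32851 promoter windows of this length, 58.0% hold TAAT on either strand and 6.86% hold it 5 or more times. Windows were found for 7 of the 8 genes, 9 windows in all, and 5 of the 9 hold the core. The longer motif TAATTG, which contains TAAT and is often given for Msx proteins, was in 1 of the 9 windows, 1 of 3 of Lhx6, and in 8.0% of all windows. CCAAT on either strand was in 5 of the 9 windows, against 37.4% of all, and these belong to Msx1, Msx2, Isl1 and Lhx6. It occurred 2 times in the window of Msx1, 1 time in that of Msx2 and 2 times in that of Isl1. In each Lhx6 window that holds CCAAT it occurred 1 time. A match is only a run of letters and does not show binding.

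The windows also differ in CpG, the dinucleotide that is dense in many promoters of developmental genes. There were 22 CpG in the Msx2 window, 29 in that of Msx1, 37 in that of Isl1, 50 in that of Barx1, 11 in that of Pax9, 11, 17 and 16 in the 3 of Lhx6 and 4 in that of Lhx8, beside a median of 7 over all windows. Of 6667 genes with a window of 20 or more CpG, 73.3% were above background on the arrays, and of 7785 genes with fewer, 35.4% were. Isl1 was thus not above background with a CpG count in the range of the first set, and Pax9, Lhx6 and Lhx8 were above background with counts in that of the second. The limit of 20 was chosen with the values in view.

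Pax9, a paired box factor that lacks a homeodomain and acts with Msx1 on Bmp4 in dental mesenchyme, gave a split picture over 3 probe sets. The probe set 1421247_at had signals of 2001, 2129, 2118 and 2331, all over the threshold, with a log2 difference of 0.89 ± 0.15 (SE, n = 4; limma adjusted p = 5.64e-05). Its SD of log2 signal, 0.09, was smaller than that of all but 6.0% of the 1000 probe sets nearest in signal. Those 1000 were not limited to probe sets above background. The probe set 1442229_at had 1389.6, 1288, 1746 and 1036 and was over the threshold on 3 arrays, with array 4 below it (adjusted p = 0.399). The probe set 1421246_at had 563, 1296, 806 and 799 and was over it only on array 2 (log2 difference -0.48 ± 0.26, adjusted p = 1). The call for Pax9 therefore rests on 1 of its 3 probe sets, and by the median of the 3 the gene was not above background. With medians, 39.3% of all genes were.

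Pitx1, needed in mice for hindlimb identity and normal growth of the lower jaw and its molars, was above background with both probe sets. The probe set 1449488_at had signals of 5308, 5249, 4750.3 and 5191, and 1419514_at had 3014, 2981, 2933 and 3179. The log2 differences from the threshold were 2.15 ± 0.13 and 1.39 ± 0.14 (SE, n = 4 each; limma adjusted p = 1.71e-10 and 1.14e-07). The arrays differed little here: the highest signal exceeded the lowest by a ratio of 1.12 in the first and 1.08 in the second, and the SD of log2 signal was 0.07 and 0.05. Of the 1000 probe sets nearest in signal, 9.60% and 2.60% had a smaller SD.

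Barx1, expressed in the mesenchyme of the molar field and of the stomach, was measured by 1 probe set. It had signals of 9352, 8844, 9392 and 10573, with array 4 highest, and a log2 difference from the threshold of 3.04 ± 0.11 (SE, n = 4; limma adjusted p = 3.88e-13). All 4 signals were between 7.25 and 9.39 times the threshold of their array.

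**Figure D1:**
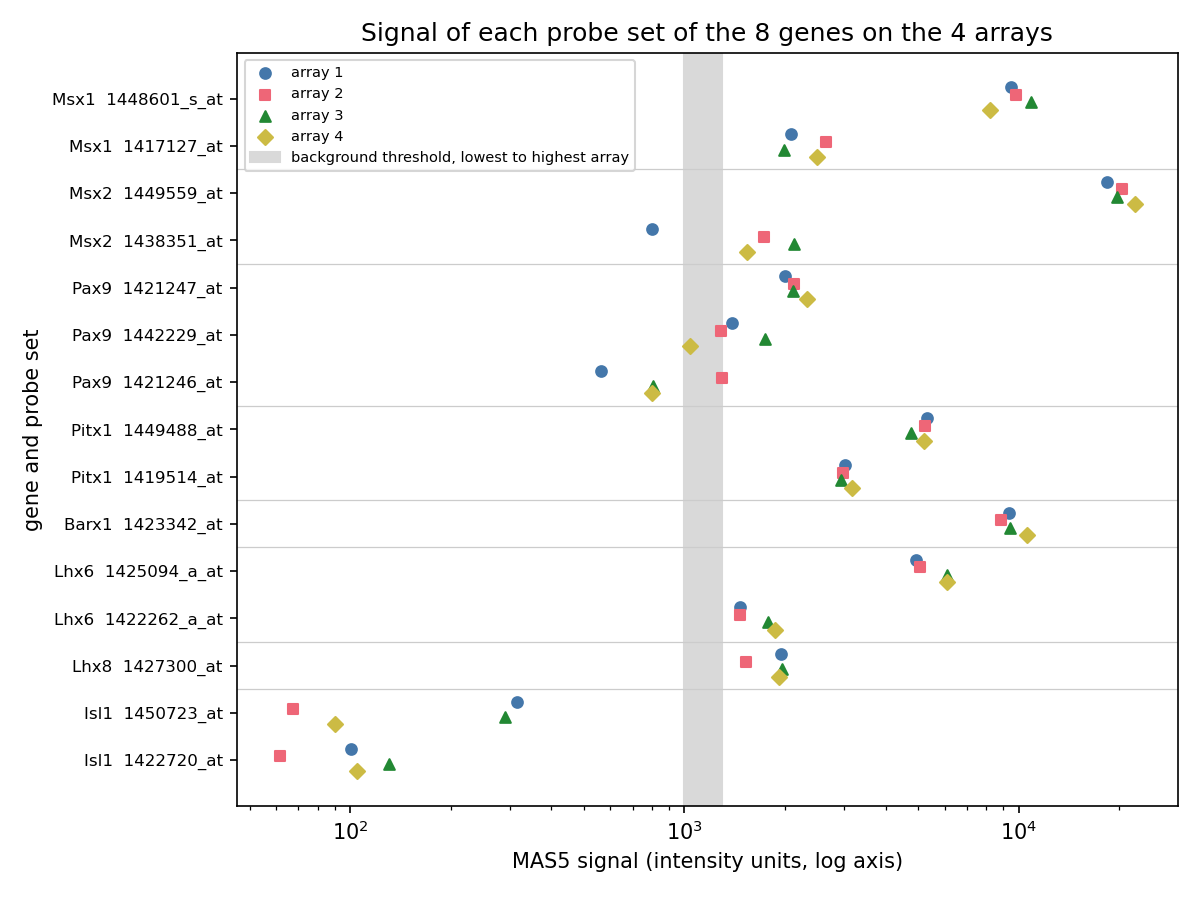
MAS5 signal (intensity units, log axis) of the 15 probe sets of the 8 genes, with 1 point per array and the grey band running from the lowest to the highest background threshold of the 4 arrays (996 to 1295). The points of 10 probe sets lie right of their arrays' thresholds, the second Msx2 probe set and 2 Pax9 probe sets have points on both sides of their arrays' thresholds, and both Isl1 probe sets lie left of it.

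The LIM homeobox genes gave different calls. LIM homeodomain proteins carry a pair of LIM domains beside the homeodomain, through which they bind cofactors. Lhx6 was above background with both probe sets, each of which has a suffix that marks transcripts of the same gene. The probe set 1425094_a_at had signals of 4935, 5083, 6082 and 6091 (log2 difference 2.25 ± 0.11, SE, n = 4; limma adjusted p = 2.11e-11). The probe set 1422262_a_at had 1463, 1466, 1777 and 1871 (0.50 ± 0.17, adjusted p = 0.0140). Its lowest ratio to the threshold, 1.34, was the smallest of the 10 probe sets called, and it was not called with a stricter threshold, the 99th percentile of receptor probe sets, or with a background of testis and retina genes. Both were higher on arrays 3 and 4 than on arrays 1 and 2, without overlap, as was Barx1 by a narrow margin (9392 on array 3, 9352 on array 1).

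In Lhx6 the mean of arrays 3 and 4 over that of arrays 1 and 2 was 1.22 for the first and 1.25 for the second. Over all probe sets above background this ratio had a median of 1.01, with 1.25 at the 95th percentile, and 15.4% of them had both of arrays 3 and 4 over both of arrays 1 and 2. After quantile normalisation the Lhx6 ratios were 1.21 and 1.29. The thresholds were also higher on arrays 3 and 4, and relative to them the first probe set varied only between 4.63 and 4.96 times and the second between 1.34 and 1.48 times. The arrays carry the same pool, and no scan or labelling batch is given in the labels.

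Lhx8, which also acts in cholinergic neurons of the forebrain, was measured by 1 probe set with signals of 1950.2, 1533, 1961 and 1922. Array 2 was low and the other arrays close together, and all were over the threshold (log2 difference 0.66 ± 0.16, SE, n = 4; limma adjusted p = 0.00182). The lowest ratio to the threshold, 1.40, makes it one of the calls nearest to background. With the threshold taken from 60 testis and retina probe sets (1425 to 2072 over the arrays), Lhx8 was not above background, and 44.3% of all genes were.

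Isl1, which also specifies motor and sensory neurons, was under the threshold on all arrays with both probe sets. The probe set 1450723_at had signals of 316, 67.5, 292 and 90.2, and 1422720_at had 100.4, 61.7, 131 and 105. The highest of these 8 signals was 0.317 of its array's threshold. Arrays 1 and 3 were clearly higher than arrays 2 and 4 in the first probe set, which was not so in the second, and the SD of log2 signal was 1.15 and 0.46. At this brightness the 1000 nearest probe sets had a median SD of 1.11 and 1.02, so the arrays give no order of levels. Isl1 was also not above background with the looser threshold, the 75th percentile of receptor probe sets (396 to 563), which 65.3% of all genes passed. A signal under the threshold does not show that the gene was silent.

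The arrays agreed on the genes that were above background. The SD of log2 signal over the 10 probe sets ranged from 0.05 to 0.20 with a median of 0.14, a factor of 1.10, where the median over all probe sets above background was 0.17. In 8 of the 10 it was under the median SD of the 1000 probe sets nearest in signal. Of all 15 probe sets of the 8 genes, called or not, 9 were under that median. The 1000 were not limited to probe sets above background, while each of the 10 had to exceed the threshold on every array. Near the threshold that rule favours a small SD, so the 8 of 10 is partly set by the rule. Array 4 gave the highest signal in 6 of the 10, from Msx2, Pax9, Pitx1, Barx1 and both Lhx6 probe sets, where it was highest in 32.4% of all probe sets above background. The median deviation of array 4 over the 10 was 0.12 on the log2 scale, beside 0.01 over all probe sets above background. After quantile normalisation array 4 was highest in 6 of the 10, with Lhx8 now among them and the Lhx6 probe set 1425094_a_at not, where it was highest in 31.7% of all. Pearson's r of log2 signal between arrays, across all probe sets above background, was 0.970 to 0.980 over the 6 pairs of arrays, which describes probe sets and not independent samples.

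**Figure D2:**
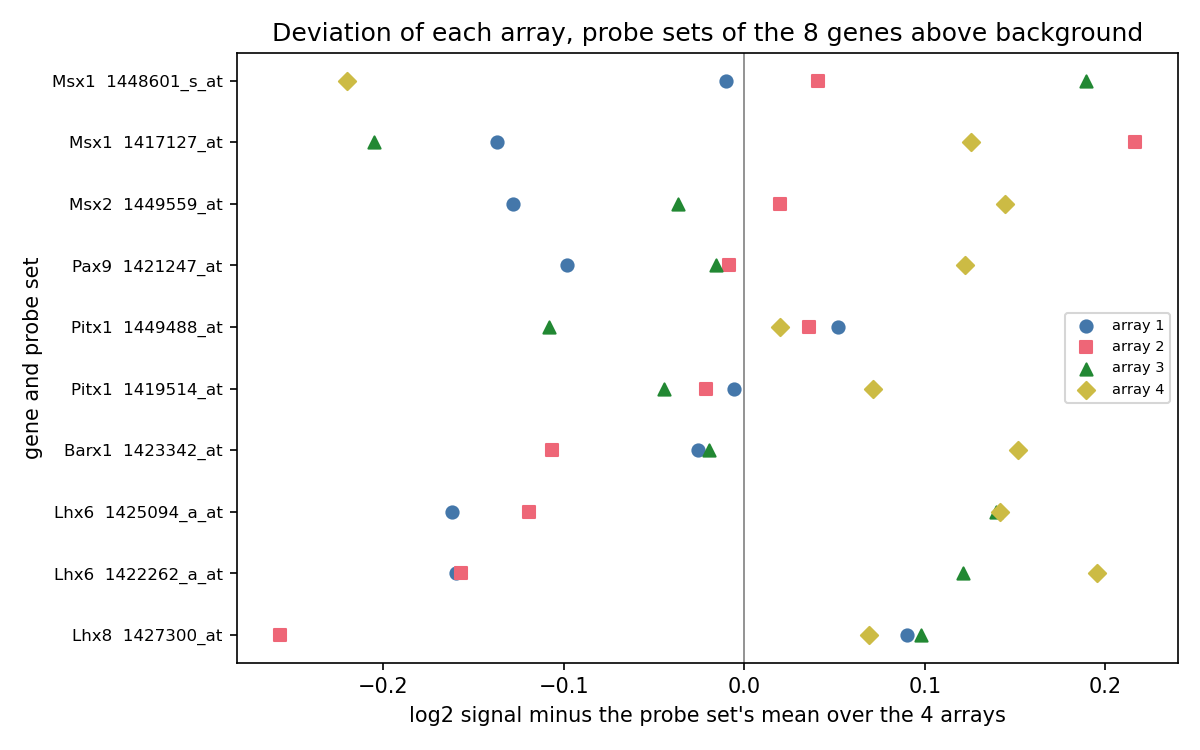
Difference of each array's log2 signal from the probe set's mean over the 4 arrays, for the 10 probe sets above background, with 1 point per array. Array 4 is the rightmost point in 6 of them, arrays 3 and 4 lie right of arrays 1 and 2 in both Lhx6 probe sets and, narrowly, in Barx1, and array 2 lies apart in Lhx8.

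**Figure D3:**
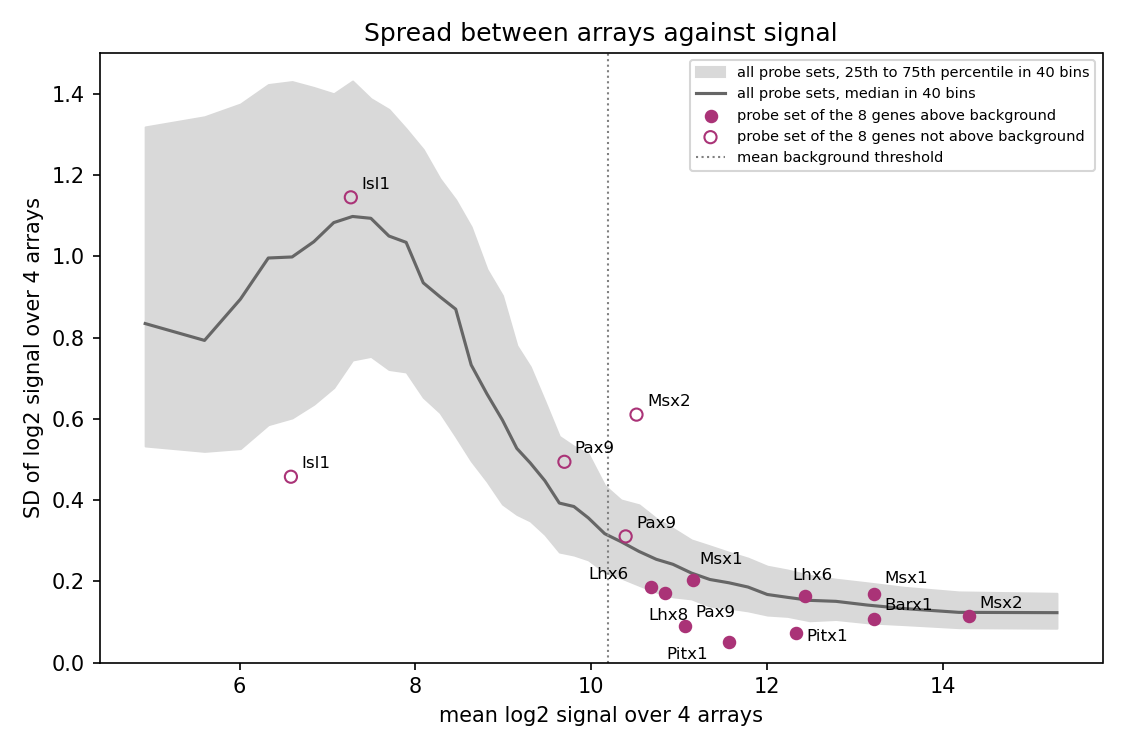
SD of log2 signal over the 4 arrays against mean log2 signal, with the 15 probe sets as points and all other than control probe sets as the median (line) and 25th to 75th percentile (grey) in 40 bins of equal number. The 10 probe sets above background have SDs of 0.05 to 0.20, and the second Msx2 probe set stands above the grey range at 0.61.

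Close relatives of the 8 genes were mostly not above background. Of 19 measured genes of the Msx, Pax, Pitx, Barx, Lhx, Isl and Lmx1 families, 1 was called (5.26%), beside 7 of 8 of the genes above and 51.6% of all genes. The median log2 difference from the threshold, over the brightest probe set of each gene, was 2.20 for the 8 genes, -0.96 for the relatives and 0.51 for all genes. It describes signal against background, most relatives being under the threshold, and is no comparison of mRNA amounts. The 8 genes are known tooth genes chosen with earlier results of these data in view, so the contrast is a description. The relative called was Isl2, a paralog of Isl1 known from motor neurons, with signals of 1429, 1592, 1859 and 1418 (0.44 ± 0.17 on the log2 scale, SE, n = 4; limma adjusted p = 0.0360). It lay just over the threshold on each array and was not called with the stricter threshold of the 99th percentile. Barx2, the paralog of Barx1, had 72.6, 64.8, 149 and 98.3, far under the thresholds of 996 to 1295. Lhx1 and Lhx2, LIM homeobox genes of head and limb development, had mean signals of 261 ± 190 and 46.1 ± 22.1 (SD, n = 4) and passed on 0 arrays. Pax2 had no probe set naming it alone and is not analysed here.

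Partners of LIM domain proteins, a list of cofactors that also holds LIM-only proteins, were above background in 8 of 10 measured genes (80.0%, all genes 51.6%). The single-stranded DNA binding proteins Ssbp3, Ssbp2 and Ssbp4, which stabilise the Ldb cofactors, had mean signals of 13960 ± 603, 7390 ± 733 and 5526 ± 397 (SD, n = 4). Ldb1, the adaptor that binds LIM domains, had 5164, 4406, 5253 and 6170.4 (limma adjusted p = 8.77e-11), and was picked out after its values were seen. Lmo1, a LIM-only protein that competes for Ldb1, was over the threshold on 3 arrays at 1651 ± 510, and Lmo3 on 0 arrays at 99.1 ± 24.5. Without probe sets that carry the suffix _s, _x or _a, 1 of 5 measured genes was above background, so this count depends on those probe sets. The suffix _a marks transcripts of the same gene, and the probe sets shown for Ssbp2, Ssbp4 and Ldb1 carry it. Ssbp2 was called with only 1 of its 4 probe sets, the one shown. Ssbp4 and Ldb1 have 1 probe set each.

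Among other factors of tooth and jaw patterning, 12 of 17 measured genes were above background (70.6%, all genes 51.6%). The homeobox genes Dlx3, Dlx5 and Dlx2, which pattern the jaw and act in dental epithelium and mesenchyme, had mean signals of 23951 ± 1682, 23012 ± 1459 and 16606 ± 1983 (SD, n = 4). Alx4 and Gsc, homeobox genes of craniofacial mesenchyme, passed on 0 arrays at 436 ± 257 and 519 ± 351. Hand1, a factor of the distal lower jaw, passed on 2 arrays at 1113 ± 580. Its signal of 282 on array 2 lay far from 1279, 1633 and 1257 on arrays 1, 3 and 4.

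Genes listed as upstream signals in the embryo were above background in 8 of 13 (61.5%), not far from the 51.6% of all genes. The list does not say which of the 8 genes a signal acts on, or in which direction. The hedgehog ligand gene Shh had signals of 56349, 65186, 59642 and 75356, and the Wnt ligand genes Wnt10a and Wnt6 had means of 18899 ± 1720 and 17507 ± 2255 (SD, n = 4). Those not above background included Edn1, the endothelin that patterns the lower jaw, at 123 ± 92.9, and the Fgf ligand genes Fgf20 and Fgf8 at 112 ± 77.6 and 31.7 ± 10.3, each on 0 arrays. Fgf8 is the ligand known to induce Barx1, Lhx6, Lhx8, Pitx1 and Pax9 in the early jaw.

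Genes placed downstream of Msx1 and Pax9 in dental mesenchyme, or in the feedback around them, were above background in 12 of 15 (80.0%, all genes 51.6%). The list includes Msx1 and Pax9. Tnc, an extracellular matrix glycoprotein of condensing mesenchyme, had 43443, 46906, 40699 and 45594. The receptor genes Tgfbr2 and Ptch1 had means of 35160.4 ± 3742 and 33079 ± 1775 (SD, n = 4). Bmp4, the ligand that Msx1 and Pax9 maintain in the bud, had 10394, 11345, 11621 and 12175 (log2 difference 3.30 ± 0.10, SE; limma adjusted p = 9.20e-14), and was picked out after its values were seen. Fgf10 and Fgf3, Fgf ligands of dental mesenchyme, passed on 0 and 2 arrays at 1016 ± 198 and 1138 ± 127. Inhba, the activin subunit, passed on 3 arrays at 1484 ± 190.

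Markers of the tissue named in the labels were above background, where 51.6% of all genes were. For enamel it was 7 of 7, led by Amelx, Ambn and Enam, and for dentin 7 of 7, led by Col1a2, Sparc and Col1a1. For dental and oral epithelium it was 9 of 9, led by Krt5, Krt14 and Perp. For other tissues, the share of markers called was under the 51.6% of all genes in every list except skeletal muscle. Skeletal muscle, at 6 of 8, was over it. Forebrain interneuron and cholinergic neuron markers, relevant to Lhx6 and Lhx8, gave 0 of 11, and limma called 0 after adjustment and also 0 at an unadjusted p under 0.05. In that list Chat, the enzyme of acetylcholine synthesis, had 787 ± 57.2, Gad1 and Gad2, for GABA synthesis, 1274 ± 233 and 385 ± 240 (SD, n = 4). Gad1 passed on 3 arrays and was called without array 4. Sensory and motor neuron markers, relevant to Isl1 and Isl2, gave 3 of 7, with Stmn2, Tubb3 and Tac1 called at 5174 ± 508, 3250 ± 707 and 2839 ± 764, while Mnx1, Pou4f1 and Prph passed on 0 arrays. Pituitary and salivary gland markers gave 1 of 9, Pomc at 1753 ± 492, with Amy1, Aqp5 and Bhlha15 not called. Pomc was called with 1 of its 2 probe sets. That list gave 0 at the 99th percentile (all genes 48.2%) and with the testis and retina background (44.3%), and 2 at the 75th percentile (65.3%). Hindlimb and stomach markers, relevant to Pitx1 and Barx1, gave 1 of 7, Tff1, a secreted trefoil peptide of mucous epithelia, at 13890.2 ± 2500 (SD, n = 4), with Gata4, Gkn1 and Gkn2 not called. Bone markers gave 2 of 5, Ibsp and Sp7, which dentin-forming cells also express, with Fgf23, Mepe and Sost not called. Whether the signals of the dentin list came from dentin or from bone was not tested. Skeletal muscle gave 6 of 8, led by Acta1, Mylpf and Ckm, with Myod1 and Myog not called. The part of neighbouring muscle, nerve or bone in the signals of the 8 genes was not tested.

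**Figure D4:**
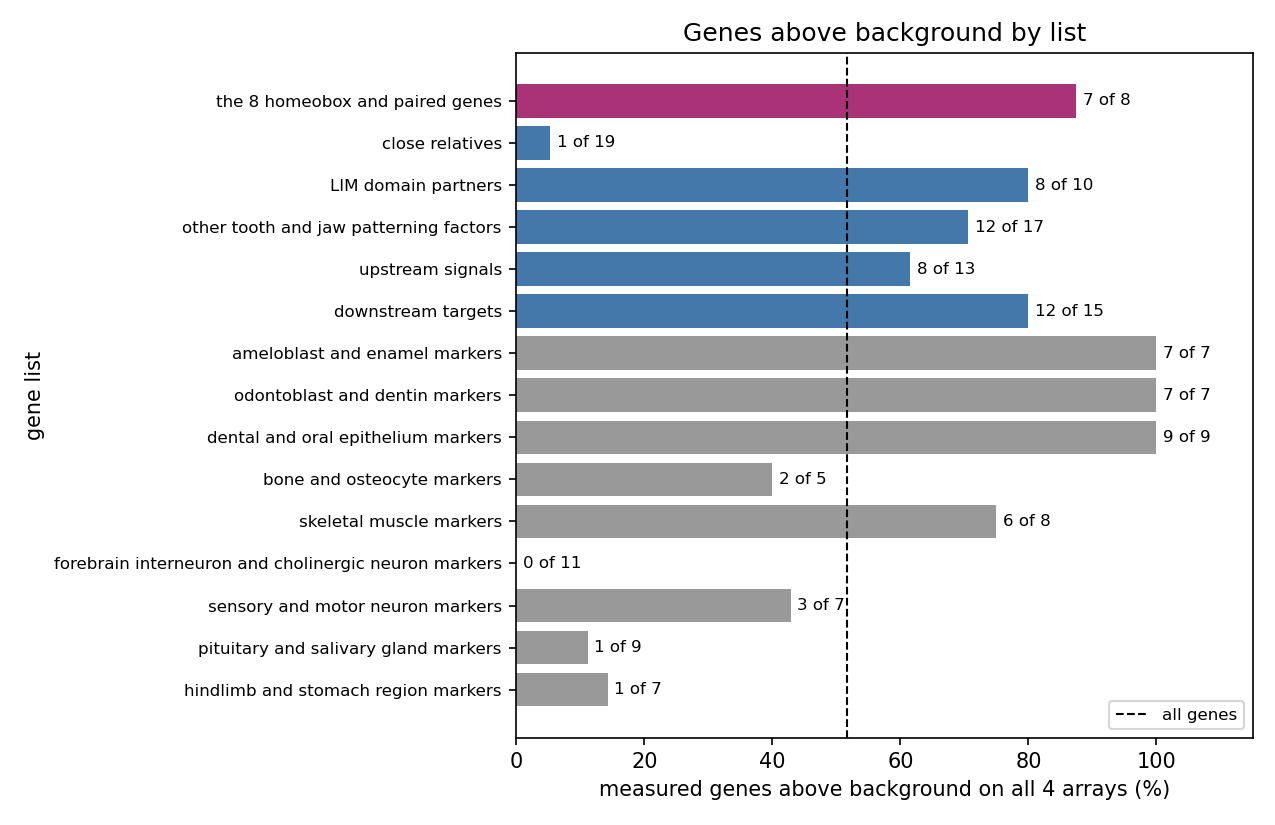
Share of measured genes above background on all 4 arrays (bars, %), with counts beside each bar and the dashed line at the share of all genes (51.6%). The 8 genes (7 of 8) and the lists of partners, other factors, signals and targets lie right of the line. So do the enamel, dentin and epithelium markers and skeletal muscle (6 of 8). The close relatives (1 of 19), forebrain neuron markers (0 of 11) and the remaining marker lists lie left of it.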

How the data were processed

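The deposited table holds 1 MAS5 signal intensity per probe set for each of 4 arrays of 1 RNA pool and 45101 probe sets. MAS5, named in the submitters' processing notes as the authors' method, subtracts a mismatch estimate and so makes dim signals noisy. Its version is not given in the sources used, and detection calls were not used here. The mean intensity computed from the deposited values without the lowest and highest 2% was 2500 on each array. No depth exists for arrays, and their number limits the precision. Array numbers follow the titles.

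The platform annotation gave the gene names, leaving out 64 control probe sets, 932 that name several genes and 9160 with no gene name here. Gene IDs of 34741 of 34945 matched RefSeq's gene table (GRCm38.p6), and 0 symbols changed. Where a gene has several probe sets, the brightest by mean log2 signal stands for it. log2(signal / threshold) was fitted with limma 3.58.1 in R 4.3.3 (trend, one-sided, adjusted p under 0.05) on 45037 probe sets, with the threshold taken as fixed. From each list the 3 called genes of highest signal and up to 3 not called, in alphabetical order, are named. The 8 genes and all lists were chosen with earlier results of these data known. No gene was matched to the 8 by pattern, since 4 arrays of 1 pool hold none. Alternatives changed the percentile, the background set, the number of arrays, the normalisation, the probe sets used, the gene summary and the trend, and left out each array.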

Additional observations from a re-analysis of the deposited data

Results flagged for a closer look

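Gap tests on 78 sets of 4 log2 signals, the 15 probe sets of the 8 genes and the named genes of the lists, found 6 sets with a single array far from the rest, while about 1 in 20 would be found by chance (3.9 of 78). Among the 15 probe sets it was 1, Lhx8 on array 2, at 10.58 against 10.91 to 10.94 on the others, where chance would give 0.75 of 15. Hand1 on array 2 was at 8.14 against 10.30 to 10.67, and Aqp5 on array 2, under the threshold, at 8.64 against 5.68 to 5.93. Stmn2 on array 4 was at 12.11 against 12.39 to 12.42. Amy1 on array 4 was at 5.85 against 6.30 to 6.36, and Fgf8 on array 3 at 5.56 against 4.70 to 4.80, both under the threshold. The distant array was array 2 in 3 sets, array 4 in 2 and array 3 in 1.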

How the results depend on the processing

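The count of the 8 genes above background was 6 or 7 under every alternative run. It was 6 of 8 with the median over a gene's probe sets (Pax9 at 0.22 on the log2 scale, under the threshold on at least 1 array). It was also 6 of 8 with the testis and retina background (Lhx8 at 0.11). Without probe sets that carry the suffix _s, _x or _a it was 6 of 7 (46.6% of all genes). That setting leaves out Lhx6, whose probe sets both carry _a, which marks transcripts of the same gene. The Lhx6 probe set 1422262_a_at was not called at the 99th percentile or with the testis and retina background. Probe sets called ranged from 8 of 15 (testis and retina background, all genes 44.3%) to 13 of 15 (75th percentile, all genes 65.3%). They were 7 of 12 without suffixes (all genes 46.6%). Leaving out an array gave 10 to 11 (all genes 51.8% to 54.1%). The second Msx2 probe set was called without array 1 and the Pax9 probe set 1442229_at without array 4. limma called 7 to 13 of the 15, at the same settings as the 8 and 13. The share of all probe sets is given only for the main setting (42.5%, by limma 41.8%). These ranges are therefore not read as a result about the 8 genes. The median SD of the 10 probe sets was 0.10 to 0.14 when leaving out an array. Called genes among the relatives, partners, other factors, signals and targets together were 36 of 69, close to the share of all genes (51.6%). They ranged from 30 (testis and retina background, all genes 44.3%) to 44 (75th percentile, all genes 65.3%). Without suffixes they were 25 of the 56 measured, where 46.6% of all genes were called. All genes called ranged from 7144 to 11877 of 18193, around 9391. Close relatives ranged from 0 to 3 of 19, with 2 without array 2. No paired analysis was possible because the 4 arrays form 1 group. The single pool gives no biological replicate, and below the threshold the arrays do not order signals.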
